A study of Mus musculus with 2 samples.

Results

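Retinoic acid is a small signal that cells make from vitamin A, and the 9 genes described here cover its synthesis, binding, reception and removal. They were chosen by name out of 21896 gene symbols, and all 9 were found in both libraries: the retinaldehyde dehydrogenases Aldh1a1, Aldh1a2 and Aldh1a3, the cellular retinoic acid binding proteins Crabp1 and Crabp2, the receptors Rara, Rarg and Rxrg, and the degrading enzyme Cyp26b1. RNA came from the germinal layers next to the ventricle (VZ–SVZ) of mouse cortex at E13.5, with 1 library of the control genotype Rcor2fl/fl and 1 of the genotype Rcor2cko, both on the strain given as C57/BL6. Both genotypes have floxed alleles of Rcor2, in which only the first exons lie between the loxP sites, and Rcor2cko also carries Cre recombinase under the Nestin promoter, which is active mainly in neural progenitors of the whole brain and not of the cortex alone. Parents were Rcor2fl/+ with NesCre, Rcor2fl/fl is the genotype without Cre, and how many embryos went into each library is not stated in the sources used here. Rcor2 encodes a co-repressor that works with the histone demethylase LSD1, and the comparison asks which genes differ in level when its floxed exons are removed.

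Retinol is oxidised to retinaldehyde, and the ALDH1A enzymes oxidise retinaldehyde to retinoic acid. CRABP proteins carry the acid inside the cell, and enzymes of the CYP26 family break it down. In the nucleus the acid binds retinoic acid receptors (RARs), which sit on DNA as pairs with retinoid X receptors (RXRs). In the embryonic forebrain the meninges and the lateral ganglionic eminence, the ventral neighbour of the cortex that makes striatal neurons, are known sites of retinoic acid synthesis.

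The deposited values are FPKM (fragments scaled to transcript length and to library depth), so that levels of different genes may be compared, and each carries the lower and upper bound of a 95% FPKM interval. Low values fall on steps of whole fragments, from which the number of fragments behind a value was recovered. The scaling totals were 18841070 fragments for Rcor2fl/fl and 25481460 for Rcor2cko. Each difference between libraries is the log2 value of (FPKM + 0.1) in Rcor2cko minus that in Rcor2fl/fl, which is smaller in size than the plain log2 ratio for low genes. Plain ratios of FPKM have a 95% exact (Clopper-Pearson) interval that covers counting error only. With 1 library per genotype no difference was tested, and each is a difference between these 2 libraries, with no replicate check. Whether a level differs because fewer cells express a gene or because each cell holds less of its RNA cannot be told apart in bulk tissue. For the 11331 genes that reached 1 FPKM in each of the libraries, the median log2 difference was -0.03 with an SD across genes of 0.25. The floxed gene Rcor2 was at 90.6 FPKM in Rcor2fl/fl and 55.7 FPKM in Rcor2cko, a value over the whole transcript, which includes exons outside the floxed part and so does not show the deletion itself. Besides genotype, the libraries differed in sex-linked RNA: Xist, made from the inactive X chromosome, was at 177 and 0.109 FPKM, and the Y-linked genes Eif2s3y and Ddx3y were at 0 and 0.0239 FPKM in Rcor2fl/fl and at 19.8 and 8.10 FPKM in Rcor2cko, so that genotype and the sex of the embryos cannot be told apart.

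Of the 9 genes, 5 reached 1 FPKM in at least 1 library and were compared, namely Crabp1, Crabp2, Rara, Rarg and Rxrg. Crabp2 and Rxrg were more than 1.5-fold higher in Rcor2cko, and 0 were more than 1.5-fold lower. Among all 11777 genes compared, 3.79% were higher by more than 1.5-fold and 1.76% were lower by as much. All 5 had a mean between 0.5 and 10 FPKM, and among the 5704 compared genes in that range, a subset looked at after the values were known, 7.08% were higher and 3.12% lower. Rxrg passed the filter of 1 FPKM only through the library in which it was high. The other 4 genes, the 3 Aldh1a genes and Cyp26b1, stayed under 1 FPKM in both libraries. The median log2 difference of the 5 compared genes was 0.53, against -0.03 for all genes compared, and over all 9 members it was 0.00.

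**Figure D1:**
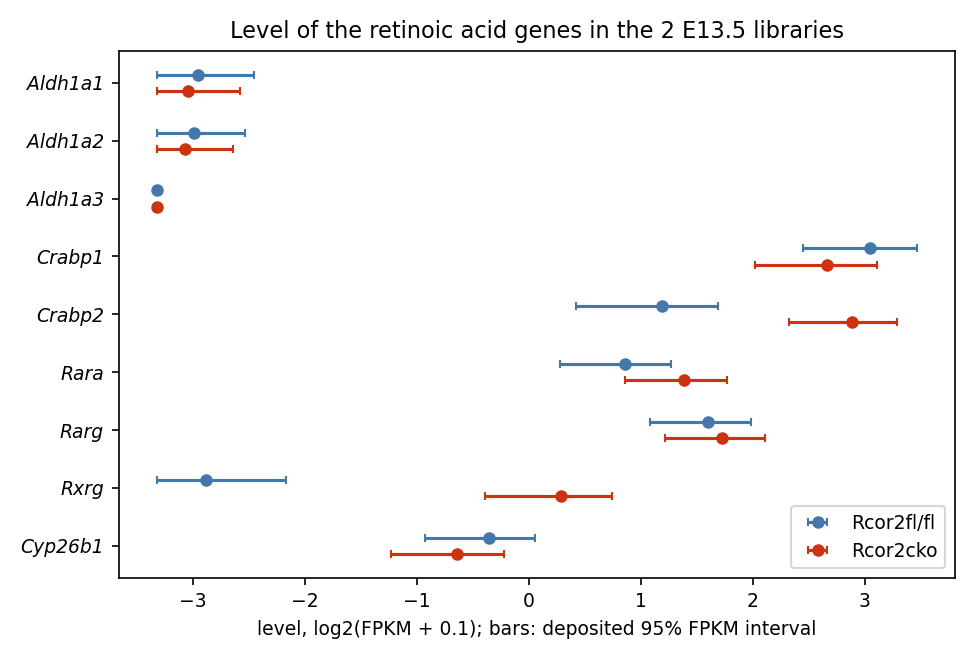
Level of each of the 9 genes in the Rcor2fl/fl library (blue) and the Rcor2cko library (red), as log2(FPKM + 0.1) on the x axis, with the deposited 95% FPKM interval as bars. The bars of the libraries lie apart for Crabp2 and Rxrg and overlap for the other genes, and Aldh1a3 is at 0 in both.

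The 4 stretches of DNA that follow are shown because they lie in front of the receptor genes whose levels are described next, and 3 of them hold letters of the kind that RAR–RXR pairs bind. Each is the 250 bases before a RefSeq transcription start (sequences from RefSeq, GRCm38.p6), placed here by its single exact match on mm9. Of the 9 genes, 7 had such a window, 13 windows in all. Crabp2 and Aldh1a3 had none. The half-sites AGGTCA and AGTTCA, which do not overlap each other here, were searched on both strands and are printed in capitals. The downstream start of Rxrg, at chr1:169548146-169548395 on the plus strand, had both half-sites, and its upstream start, at chr1:169528243-169528492, had none. Of 4 Rara windows only the one printed, at chr11:98800775-98801024 on the plus strand, held a half-site, and the other 3 held none. Of 2 Rarg windows the upstream one, at chr15:102087954-102088203 on the minus strand, held a half-site, and the downstream one, at chr15:102076932-102077181, held none. The windows of Aldh1a1, Aldh1a2, Crabp1 and Cyp26b1 held none either.
Rxrg, upstream start: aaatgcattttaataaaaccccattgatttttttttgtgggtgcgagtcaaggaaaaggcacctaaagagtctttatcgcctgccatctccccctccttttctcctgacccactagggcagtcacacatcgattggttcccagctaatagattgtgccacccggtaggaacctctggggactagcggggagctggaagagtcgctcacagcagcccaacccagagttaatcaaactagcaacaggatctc
Rxrg, downstream start: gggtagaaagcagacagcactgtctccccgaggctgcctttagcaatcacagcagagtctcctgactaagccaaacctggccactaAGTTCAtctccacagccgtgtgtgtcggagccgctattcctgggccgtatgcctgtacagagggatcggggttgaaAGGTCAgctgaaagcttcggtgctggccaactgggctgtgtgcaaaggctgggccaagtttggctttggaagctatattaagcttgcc
Rara, start at 98801025: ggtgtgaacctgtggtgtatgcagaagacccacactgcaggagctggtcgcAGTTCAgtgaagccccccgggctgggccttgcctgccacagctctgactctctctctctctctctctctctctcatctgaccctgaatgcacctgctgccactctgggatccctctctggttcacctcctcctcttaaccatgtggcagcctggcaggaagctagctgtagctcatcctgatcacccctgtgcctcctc
Rarg, upstream start: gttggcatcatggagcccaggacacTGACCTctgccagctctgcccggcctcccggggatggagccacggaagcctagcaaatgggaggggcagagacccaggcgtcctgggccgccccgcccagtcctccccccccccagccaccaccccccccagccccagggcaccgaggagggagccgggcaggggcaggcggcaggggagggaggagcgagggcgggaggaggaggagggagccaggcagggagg
In the downstream Rxrg window AGTTCA begins 164 bases and AGGTCA 88 bases before the start. The single sites begin 199 bases before the start in Rara and 225 bases before it in Rarg, where AGGTCA is on the opposite strand and reads TGACCT. Of the 13 windows, 3 held a half-site, and so did 24.2% of 32851 windows of the same length across the genome. A pair of half-sites in the same orientation 1, 2 or 5 bases apart was in 0 of the 13 windows and in 0.137% of all windows. These matches are letters in a window, and binding there was not measured.

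The 3 enzymes that make retinoic acid were at the edge of detection in both libraries. Aldh1a1, which spans bases 20676451 to 20717952 of chromosome 19 (mm9, plus strand), was at 0.0289 FPKM in Rcor2fl/fl and 0.0214 FPKM in Rcor2cko, from 1 fragment in each library. Aldh1a2, on chromosome 9 from 71063596 to 71144050 on the plus strand and known as the enzyme of the meninges and embryonic mesoderm, was at 0.0256 and 0.0190 FPKM, again from 1 fragment each. Aldh1a3, on chromosome 7 from 73535778 to 73572403 on the minus strand and known from the lateral ganglionic eminence, was listed at 0 in both libraries. A count of 0 allows a level of up to 3 fragments, which is 0.0497 FPKM for Aldh1a3 in Rcor2fl/fl and 0.0368 FPKM in Rcor2cko. The summed level of the 3 genes was 0.0545 FPKM in Rcor2fl/fl and 0.0405 FPKM in Rcor2cko. At this depth no difference in synthesis enzymes was detectable: the Rcor2cko over Rcor2fl/fl ratio of Aldh1a1 had an interval from 0.00946 to 58.3, and that of Aldh1a2 an interval from 0.00945 to 58.2.

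The binding proteins Crabp1 and Crabp2 stood in different proportion in the libraries. Crabp2, a small carrier known to hand retinoic acid to its receptors in the nucleus, spans bases 87752588 to 87757298 of chromosome 3 (mm9, plus strand), with 4 exons in its longest coding transcript. It was at 2.18 FPKM in Rcor2fl/fl, from 29 fragments, and at 7.30 FPKM in Rcor2cko, from 130 fragments. The level in Rcor2cko was 3.35 times that in Rcor2fl/fl, with an interval from 2.22 to 5.19. On the log2 scale with the pseudocount the difference was 1.70, at rank 60 of the 11777 genes compared when ordered from the highest. The 95% FPKM intervals of the libraries, from 1.24 to 3.12 FPKM and from 4.90 to 9.69 FPKM, did not overlap, and 1.87% of all genes compared were more than 1.5-fold higher with intervals that did not overlap.

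Crabp1, the second carrier, known from migrating interneurons and from neural crest, lies on chromosome 9 from 54612555 to 54620917 on the plus strand, also with 4 exons. It was at 8.15 FPKM in Rcor2fl/fl, from 84 fragments, and at 6.25 FPKM in Rcor2cko, from 86 fragments. Its ratio of 0.767 had an interval from 0.561 to 1.05, which includes 1, and its log2 difference was -0.38. The level of Crabp1 over that of Crabp2, a ratio within a library that no scaling between libraries can change, was 3.74 in Rcor2fl/fl, with an exact interval from 2.43 to 5.92, and 0.856 in Rcor2cko, with an interval from 0.644 to 1.13. Crabp2 made up 21.1% of the summed FPKM of the pair in Rcor2fl/fl and 53.9% in Rcor2cko.

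**Figure D2:**
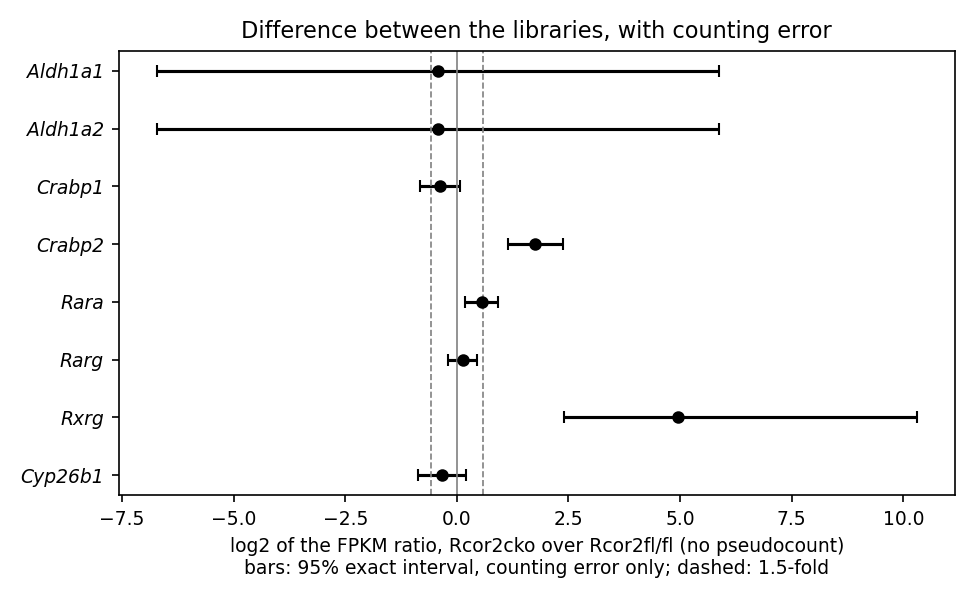
Log2 of the FPKM ratio, Rcor2cko over Rcor2fl/fl and without a pseudocount, for the 8 genes with fragments in both libraries; bars are 95% exact intervals that cover counting error only, and dashed lines mark 1.5-fold. The intervals of Crabp2 and Rxrg lie beyond 1.5-fold, that of Rara lies above 0 and crosses 1.5-fold, and those of the other genes include 0.

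Among the receptors, Rxrg differed most between the libraries, on a level that rests on 1 fragment in Rcor2fl/fl. Rxrg encodes RXR gamma, known in the forebrain from the developing striatum, and spans bases 169528515 to 169569754 of chromosome 1 (mm9, plus strand). It was at 0.0358 FPKM in Rcor2fl/fl, from 1 fragment, and at 1.12 FPKM in Rcor2cko. Because Rxrg has 2 transcripts, of 1676 and 2132 nt, and the Rcor2cko values are given per gene, its fragments in that library lie between 42.0, if all came from the shorter transcript, and 55.0, if all came from the longer. The 1 fragment of Rcor2fl/fl was assigned to the shorter transcript. The FPKM ratio was 31.2 with an interval from 5.30 to 1262, computed from the smaller number of fragments, and the log2 difference with the pseudocount was 3.16, at rank 22 of 11777. The FPKM intervals, with an upper bound of 0.123 in Rcor2fl/fl and a lower bound of 0.665 in Rcor2cko, did not overlap. With the pseudocount of 0.1 this was the largest difference of the 9 genes, but with a pseudocount of 1 the log2 difference of Rxrg was 1.03, under that of Crabp2 at 1.38, and both were still above 1.5-fold.

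Rara encodes RAR alpha and lies on chromosome 11 from 98789132 to 98836256 on the plus strand. It was at 1.71 FPKM in Rcor2fl/fl, from 95 fragments, and at 2.52 FPKM in Rcor2cko, from 187.9 to 204.3 fragments depending on the transcripts they came from. The ratio was 1.47, with an interval from 1.14 to 1.90, so that the difference exceeded counting error but not 1.5-fold. The 95% FPKM intervals overlapped, from 1.11 to 2.31 FPKM and from 1.72 to 3.32 FPKM. With only the highest transcript of a gene kept in place of the sum, a setting that lowers only the Rcor2fl/fl library, the log2 difference of Rara was 0.77 in place of 0.53, past 1.5-fold.

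Rarg encodes RAR gamma and lies on chromosome 15 from 102065369 to 102087948 on the minus strand. It was at 2.93 FPKM in Rcor2fl/fl, from 136 fragments, and at 3.22 FPKM in Rcor2cko, from 194.1 to 222.6 fragments. The ratio of 1.10 had an interval from 0.876 to 1.38, which includes 1, and the log2 difference was 0.13.

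The Rcor2fl/fl library, given per transcript, shows to which forms of the receptors its FPKM was assigned. Rara has 4 transcripts, and 83.8% of its FPKM was assigned to that of 3129 nt, at 1.44 FPKM (95% FPKM interval 0.902 to 1.97). A transcript of the same length, Rara-201 in GENCODE vM1, starts at 98801025, directly after the Rara window printed above. The transcript of 3179 nt held another 16.2%, at 0.277 FPKM, and those of 3251 and 3384 nt were listed at 0. Rarg was divided between a transcript of 2570 nt, with 75.3% of its FPKM, and one of 2917 nt, with 24.7%. The division rests on reads from exons that the transcripts do not share, and the Rcor2cko values, given per gene, do not show whether it differed there.

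The receptors can be set beside the members of their families that the list of 9 leaves out. Rarb, a receptor gene that is itself known to respond to retinoic acid, was at 0.267 FPKM in Rcor2fl/fl, from 13 fragments, and at 0.686 FPKM in Rcor2cko, from 45 fragments. Its ratio was 2.57 with an interval from 1.36 to 5.19, but it stayed under 1 FPKM and its 95% FPKM intervals overlapped. The 3 RAR genes summed to 4.91 FPKM in Rcor2fl/fl and 6.42 FPKM in Rcor2cko. Rara held 34.9% of this sum in Rcor2fl/fl and 39.2% in Rcor2cko, Rarg 59.7% and 50.1%, and Rarb 5.44% and 10.7%. The RXR genes summed to 22.8 and 24.2 FPKM, most of it Rxrb at 19.98 FPKM in Rcor2fl/fl and 19.97 FPKM in Rcor2cko. Rxra was at 2.78 and 3.12 FPKM. Rxrg accordingly made up 0.157% of the RXR sum in Rcor2fl/fl and 4.62% in Rcor2cko, while Rxrb held 87.6% and 82.5%.

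**Figure D3:**
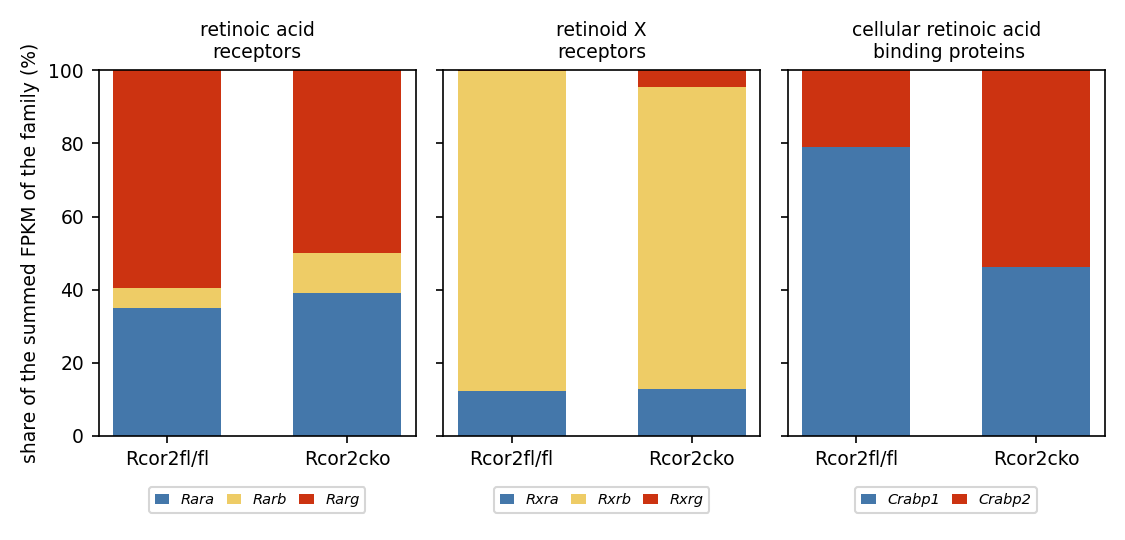
Share of each gene in the summed FPKM of its family, in percent, for the RAR genes, the RXR genes and the CRABP genes, with 1 bar per library. The binding proteins differ most, with Crabp2 at 21.1% in Rcor2fl/fl and 53.9% in Rcor2cko, while Rxrb holds most of the RXR sum in both.

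Cyp26b1, the enzyme that clears retinoic acid, lies on chromosome 6 from 84521938 to 84543740 on the minus strand. It was at 0.683 FPKM in Rcor2fl/fl, from 58 fragments, and at 0.541 FPKM in Rcor2cko, from 62.0 to 62.7 fragments. The ratio of 0.792 had an interval from 0.544 to 1.15, which includes 1. In Rcor2fl/fl nearly all of its FPKM was on the transcript of 4700 nt, at 0.683 FPKM, and 7.83e-05 FPKM on that of 4751 nt. The other enzymes of its family, Cyp26a1 and Cyp26c1, were listed at 0 in both libraries.

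In the order of their levels in Rcor2fl/fl, Crabp1 came first, followed by Rarg, Crabp2, Rara, Cyp26b1, Rxrg, Aldh1a1, Aldh1a2 and Aldh1a3. Neighbours in this order had separate 95% FPKM intervals in 3 places: between Crabp1 and Rarg, between Rara and Cyp26b1, and between Cyp26b1 and Rxrg. Within the run of Rarg, Crabp2 and Rara, and within that of Rxrg and the 3 Aldh1a genes, the intervals of neighbours overlapped. In Rcor2cko, Crabp2 came first and Rxrg moved ahead of Cyp26b1, and the intervals of neighbours were separate in 2 places: between Rara and Rxrg, and between Cyp26b1 and Aldh1a1.

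**Figure D4:**
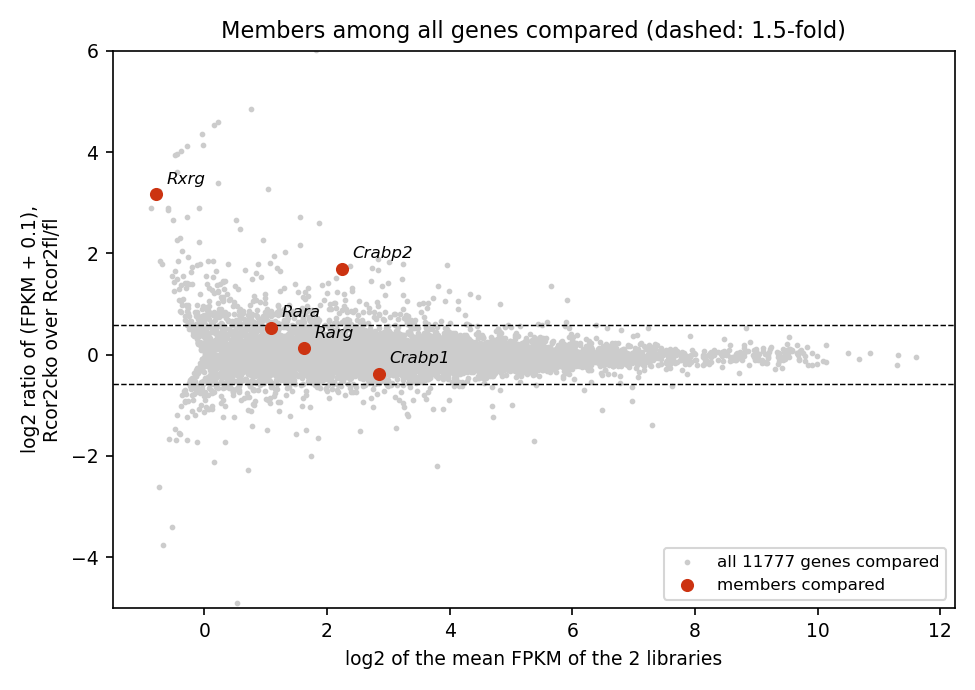
Difference in log2(FPKM + 0.1), Rcor2cko minus Rcor2fl/fl, against the log2 of the mean FPKM for the 11777 genes compared (grey) and the 5 members among them (red); dashed lines mark 1.5-fold, and 14 genes lie outside the plotted range. Crabp2 and Rxrg lie above the upper line, and Rara, Rarg and Crabp1 lie between the lines.

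The wider pathway was described with 5 lists of 68 other genes in all, some of them on more than 1 list, of which 35 were compared. Of these, 4 were more than 1.5-fold higher in Rcor2cko (among them Ttr, Meis1 and Nr4a2) and 0 more than 1.5-fold lower, with a median log2 difference of 0.05. For comparison, 3.79% of all genes compared were higher and 1.76% lower by as much. Among the genes that carry retinol or turn it into retinaldehyde, 10 of 24 were compared, 2 of them higher and 0 lower, with a median of 0.13. Ttr, the carrier of retinol and thyroid hormone that the choroid plexus secretes, was listed at 0 in Rcor2fl/fl and at 57.8 FPKM in Rcor2cko. It passed the filter of 1 FPKM only through Rcor2cko. The most abundant others, Adh5 at 71.9 and 68.0 FPKM, Dhrs4 at 21.8 and 23.5 FPKM and Rdh11 at 11.4 and 12.1 FPKM, differed by less than 1.5-fold. The same held for Rdh10, which makes the retinaldehyde of the embryo, at 2.65 and 3.07 FPKM with a ratio interval from 0.902 to 1.49, and for Dhrs3, which turns retinaldehyde back to retinol, at 2.13 and 2.39 FPKM; both were named after their values were seen.

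Of 19 genes known to respond to retinoic acid, 7 were compared, 2 of them higher and 0 lower. Their median log2 difference was 0.33, and among all genes compared 3.79% were higher and 1.76% lower. The homeobox gene Meis1 was one of the higher genes, at 1.37 FPKM in Rcor2fl/fl and 2.66 FPKM in Rcor2cko, a ratio of 1.94 with an interval from 1.501 to 2.53. Its relative Meis2 was at 60.3 and 67.2 FPKM, Nav2 at 10.4 and 13.0 FPKM and Brinp1, listed as Dbc1, at 5.51 and 4.42 FPKM. At the other end, 8 of the 19 were listed at 0 in both libraries, among them Cyp26a1, Stra8 and Hoxb1. Of 13 other receptors and RXR partners 7 were compared, 1 of them higher, with a median of 0.00. That gene, the orphan receptor Nr4a2, was at 4.81 and 7.39 FPKM, a log2 difference of 0.61, just past 1.5-fold and with 95% FPKM intervals that overlapped. Thra, which encodes a thyroid hormone receptor, was at 162 and 148 FPKM, and Nr1h2 at 18.03 and 19.7 FPKM. All 13 co-repressors and co-activators of nuclear receptors were compared and 0 were past 1.5-fold, with Hdac3 at 46.95 and 46.5 FPKM, the co-repressor Ncor1 at 37.1 and 34.4 FPKM and Tbl1x at 22.8 and 24.5 FPKM. Of 5 other enzymes and carriers of the acid, only Fabp5 was compared, at 243 and 198 FPKM.

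Markers of other cell types also differed between the libraries, and their part in the values of Crabp2 and Rxrg was not tested. Of 18 markers of the ganglionic eminences and striatum, 17 were compared and 14 were more than 1.5-fold higher in Rcor2cko, 0 lower. Among all genes compared, 3.79% were higher and 1.76% lower by as much. The summed level of the 18 was 40.1 FPKM in Rcor2fl/fl and 93.4 FPKM in Rcor2cko. Ppp1r1b, at 14.3 and 17.1 FPKM, Foxp2, at 3.405 and 4.353 FPKM, and Drd1a, at 1.512 and 1.298 FPKM, differed by less than 1.5-fold. Drd1a was the only compared marker that was lower in Rcor2cko, and its ratio interval from 0.646 to 1.14 includes 1. Foxp2 and Drd1a were named after their values were seen. Among the 14 higher markers, Dlx1 was at 4.87 and 13.9 FPKM and Gad1 at 4.65 and 10.7 FPKM. Gsx2, Isl1, Six3 and Tac1 were listed at 0 in Rcor2fl/fl and at 1.64, 2.23, 1.43 and 1.46 FPKM in Rcor2cko. Gsx2, Isl1, Six3, Tac1 and others of the 14 passed the filter of 1 FPKM only through Rcor2cko, so that the count of 14 partly follows from the filter. Of 9 choroid plexus markers 4 were compared and all 4 were higher. All 4 passed the filter of 1 FPKM only through Rcor2cko, so that the filter itself favoured a higher value there. Their 9-gene sum was 1.51 and 64.6 FPKM, and without Ttr it was 1.51 and 6.77 FPKM, with Car12 at 0.467 and 1.57 FPKM and Aqp1 at 0.352 and 1.40 FPKM. Ttr was listed at 0 in Rcor2fl/fl and at 57.8 FPKM in Rcor2cko, from 1503 fragments.

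Meningeal markers, of which 2 of 13 reached 1 FPKM, summed to 7.39 FPKM in Rcor2fl/fl and 8.66 FPKM in Rcor2cko. Bgn was at 4.47 and 4.39 FPKM and Col3a1 at 0.662 and 0.856 FPKM. Ptgds, the only one past 1.5-fold among the compared, was at 0.695 and 1.36 FPKM, from 8 and 21 fragments. It passed the filter only through Rcor2cko, its FPKM intervals overlapped, and its ratio interval from 0.835 to 5.13 includes 1. Under 1 FPKM in both libraries, Dcn was lower in Rcor2cko, at 0.533 and 0.0985 FPKM, and Col1a1 higher, at 0.0707 and 0.236 FPKM. The FPKM intervals of Dcn and of Col1a1 did not overlap between libraries, and both genes were named after their values were seen. All 9 endothelial markers were compared and 0 were past 1.5-fold, with sums of 35.4 and 38.3 FPKM and with Cldn5 at 12.4 and 12.7 FPKM, Kdr at 4.81 and 4.95 FPKM and Pecam1 at 4.27 and 4.64 FPKM. The tissue label was checked for dorsal cortex, and not for its layers, with 10 markers. All 10 were above 1 FPKM in at least 1 library, at a sum of 1103 FPKM in Rcor2fl/fl and 988 FPKM in Rcor2cko. Of the 10, 8 were lower in Rcor2cko and 2 higher, with a median log2 difference of -0.29. Neurod6 was at 399 and 386 FPKM, Neurod2 at 149 and 135 FPKM and Lhx2 at 130.0 and 88.5 FPKM. Only 1 of the 10, Emx2, was more than 1.5-fold lower, at 21.5 and 13.9 FPKM. The FPKM intervals did not overlap for Emx2 and Lhx2. The same held for Fezf2, at 76.6 and 54.5 FPKM, and Neurod1, at 34.4 and 26.0 FPKM, both named after their values were seen. Tbr1, also among the 10 and named after its value was seen, was at 71.5 and 83.2 FPKM. The paper describes Tbr1-positive cells as postmitotic pyramidal neurons, so that the RNA cannot be assigned to the germinal layers alone.

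**Figure D5:**
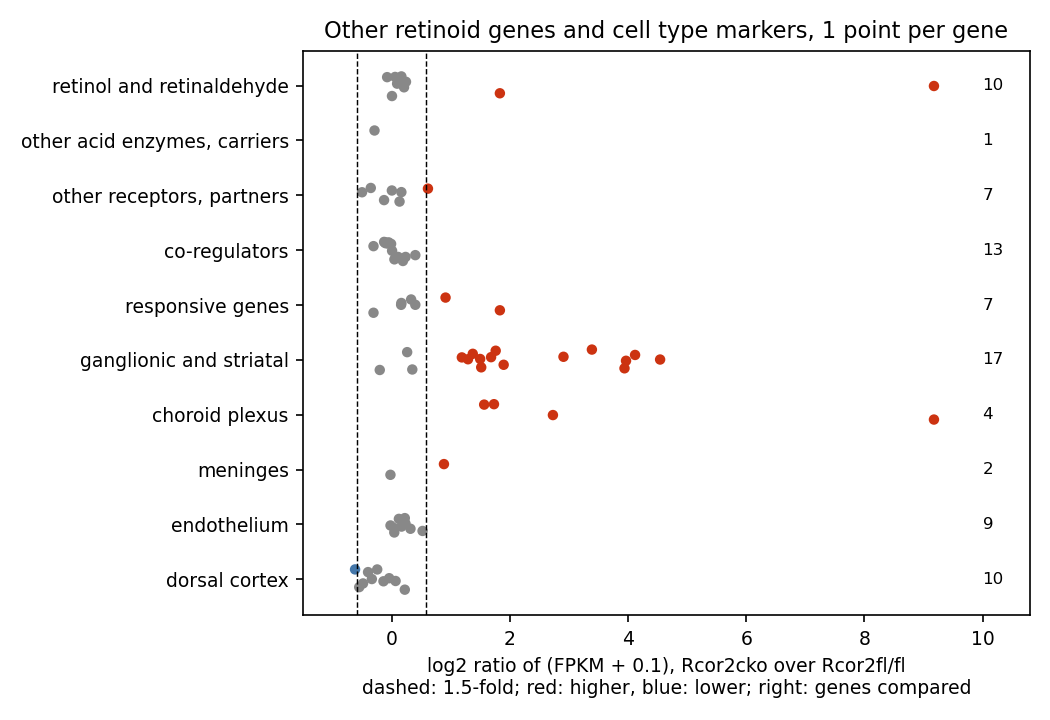
Difference in log2(FPKM + 0.1), Rcor2cko minus Rcor2fl/fl, for the genes compared in 5 retinoid lists and 5 lists of cell type markers, with 1 point per gene, red where more than 1.5-fold higher and blue where more than 1.5-fold lower; the number at the right is the genes compared. Most points of the retinoid lists lie between the dashed lines, and 14 of the 17 ganglionic and striatal points lie above them.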

How the data were processed

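RNA of the E13.5 VZ–SVZ was isolated with RNeasy columns and made into stranded mRNA libraries, 1 per genotype. The authors mapped the reads to mm9 and deposited FPKM values with a 95% interval. The submitters' processing notes name TopHat 1.3.3 and Cufflinks 1.2.0, and the paper's methods name another TopHat version and Cuffdiff. Rcor2fl/fl was listed by RefSeq transcript, in 27641 rows, and Rcor2cko by gene, in 21896 rows. FPKM_status was not OK in 281 and 93 of these rows, which were not excluded.

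Transcripts of a gene were summed, the distances from each value to its interval bounds added in quadrature, and genes with 1 FPKM or more in either library were compared on log2(FPKM + 0.1) against a 1.5-fold threshold. Fragments were recovered from FPKM times transcript length less an offset, 194.1 nt and 200.9 nt, fitted on genes with 1 fragment; among single-transcript genes of 600 nt or longer, 99.3% of 4402 Rcor2fl/fl values and 99.4% of 4330 Rcor2cko values of up to 100 fragments came within 0.1 of a whole number. For genes with several transcripts, 98.2% of 798 summed Rcor2fl/fl values did. These steps were checked on simulated data for single-transcript genes, all longer than Crabp1 and Crabp2. The check thus did not cover genes as short as these or genes with several transcripts. Alternatives were pseudocounts of 1 and 0.01, scaling to the median or upper-quartile gene, the highest row per gene, no filter, 1 FPKM required in each library, a 2-fold threshold and non-overlapping intervals. No test across genes was run, because there is 1 library per genotype.

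Positions are from GENCODE vM1 on NCBIM37 (mm9), counted from 1. The members and lists were chosen with earlier results of these data known. Genes were named by rule: all members, every retinoid-list gene past 1.5-fold, the 3 most abundant others of each list, markers at 0 in one library and at 1 FPKM or more in the other, and, chosen after seeing values, the genes completing a family or said to be so. Of the retinoid-list genes past 1.5-fold, 1 is counted but not reported here. No gene was named for likeness of pattern, since 2 libraries give 1 ratio per gene. Python 3.11.15, numpy 2.4.6, pandas 2.3.3, scipy 1.17.1 and matplotlib 3.10.9 were used.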

Additional observations from a re-analysis of the deposited data

How the results depend on the processing

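In all, 9 alternatives gave 107 recomputed values, of which 88 were counted as kept and 0 reversed. A count of genes was kept if it stayed within 1.5-fold of the main value, so that kept values could differ in size. The median log2 difference of the members, for example, was counted as kept at 0.77 with the highest row per gene, against 0.53. No paired analysis was possible because each genotype has a single library, and for the same reason no library could be left out. The number of members more than 1.5-fold higher was 2 or 3 under every alternative but 1: when genes had to reach 1 FPKM in each library it was 1, since Rxrg then left the comparison. The median log2 difference of the members was 0.00 with no filter, which adds the 4 genes under 1 FPKM. It was 0.33 when genes had to reach 1 FPKM in each library, which removes Rxrg. Of 45 log2 differences of single members, 43 were counted as kept, but some of these could hardly move. Aldh1a3, at 0 in both libraries, has no counting interval, and those of Aldh1a1 and Aldh1a2 were too wide to leave. The highest row per gene cannot change the 5 members with 1 transcript. Outside their counting intervals, Rxrg moved to 1.03 with a pseudocount of 1, and Rarg to 0.52 with the highest row per gene, which lowers only the Rcor2fl/fl library. The retinoid lists had 7 genes higher with the highest row per gene, 8 higher and 3 lower with no filter, and 2 higher above 2-fold.

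Over all genes, the numbers higher and lower were 1287 and 672 with no filter, 262 and 128 when genes had to reach 1 FPKM in each library, 243 and 100 with a pseudocount of 1, 162 and 62 above 2-fold, and 220 and 81 with non-overlapping 95% FPKM intervals; 1214 were higher with the highest row per gene. Depth limits the Aldh1a genes and Rxrg most, with 0 or 1 fragment in Rcor2fl/fl.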
